A study of Homo sapiens with 12 samples.

Results

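The SOX genes encode transcription factors that share an HMG box, a DNA-binding domain that resembles that of SRY. The 8 SOX genes described here are SOX4, SOX11 and SOX12 of the SoxC group, SOX2 of the SoxB1 group, SOX5 and SOX6 of the SoxD group, and SOX9 and SOX10 of the SoxE group. They were taken by symbol, with every probe set that names exactly 1 gene, which gave 32 probe sets of 44988 such probe sets and 8 genes of 18132. RNA levels were measured on PrimeView arrays, which are 1-colour Affymetrix expression arrays, in 12 samples from 2 human neuroblastoma cell lines, BE(2)-C and Kelly. The 4 groups were BE(2)-C with 1 µM JQ1 for 24 h, BE(2)-C with the solvent DMSO for the same time, Kelly with 1 µM JQ1 for 24 h and Kelly with DMSO, with 3 replicates in each. JQ1 is a small molecule that blocks the acetyl-lysine pockets of the BET bromodomain proteins, and both lines are known to carry an amplified MYCN gene. No agent other than DMSO is named for the controls, each line stands for 1 tumour, and nothing in the labels states that the replicates were grown apart. The p-values therefore rest on the spread among these 12 samples, part of which may be technical.

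SOX factors bend DNA and usually act with partner factors, so the same family serves many lineages. SoxC factors are known for their part in the differentiation of neurons and of the sympathetic nervous system, and SOX11 is counted among the core factors of the adrenergic, or sympathetic-like, state of neuroblastoma. SOX2 is known for keeping neural progenitors undifferentiated, SoxD factors work beside SoxE factors in cartilage and glia, SOX9 drives cartilage and neural crest programmes, and SOX10 is the factor by which neural crest and Schwann cells are usually recognised.

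All values are log2 of the deposited array intensity. Each gene was read from its brightest probe set, and changes are differences in log2 intensity tested with limma over all genes, with an adjusted p under 0.05 called a change. Over all genes, arrays of 1 group had a Pearson r of 0.952 to 0.996, and arrays from different lines 0.880 to 0.956. The array medians were between 61.4 and 67.3 on the linear scale. The sympathetic markers PHOX2A, HAND2 and CHGA averaged between 10.05 and 14.12 in every group, and DDC, CHGB and GATA3 lay within that range. TH averaged lower, between 7.35 in Kelly with JQ1 and 9.37 in BE(2)-C with DMSO. DBH averaged 9.03 in BE(2)-C with JQ1 and lay within the range in the other groups. All 4 measured haematopoietic markers averaged under 6. The hybridisation control probe sets, 9 in all for BioB, BioC, BioDn and CreX, averaged 11.41 ± 1.20 in BE(2)-C with JQ1, 11.20 ± 1.54 in BE(2)-C with DMSO, 12.94 ± 0.69 in Kelly with JQ1 and 11.90 ± 1.29 in Kelly with DMSO (SD, n = 3 each). Results are given with this signal as a covariate where it changes a call.

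With JQ1, SOX11 rose 2.39-fold in Kelly cells and SOX9 fell there, whereas none of the 8 genes passed the test in BE(2)-C cells alone. SOX4 rose 1.65-fold when both lines were averaged. The remaining genes, SOX12, SOX2, SOX5, SOX6 and SOX10, did not pass in either line. SOX11 intensity was lower in BE(2)-C than in Kelly in both treatments, by 14.3-fold to 102-fold over its 4 probe sets with JQ1 and by 5.82-fold to 57.6-fold with DMSO. No detection call was used here, so it is not known whether SOX11 lies above background in BE(2)-C, and these folds are ratios of intensity and not of transcript.

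**Figure D1:**
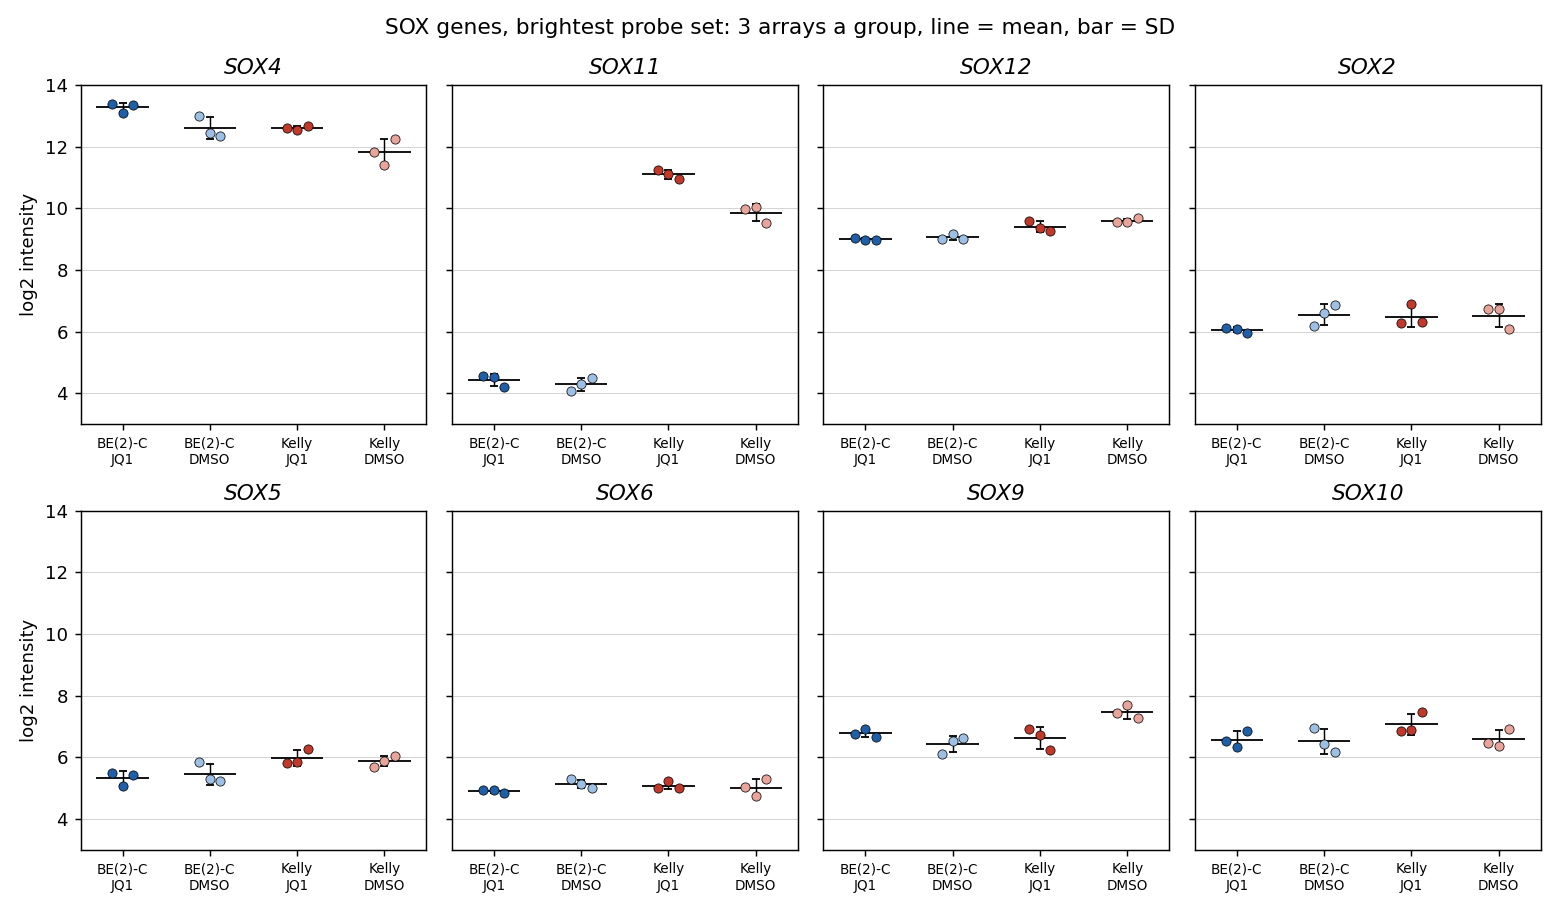
Log2 intensity of the brightest probe set of each of the 8 SOX genes, 1 panel a gene, in BE(2)-C and Kelly cells with JQ1 or DMSO. Points are single arrays (3 a group) and bars are group means ± SD. SOX11 sat between 9.53 and 11.25 in Kelly arrays and between 4.07 and 4.55 in BE(2)-C arrays, and SOX4 was above 11 in all of them.

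SOX11 is a SoxC activator of neuronal genes. In Kelly cells its brightest probe set read 11.25, 11.11 and 10.95 with JQ1, against 9.97, 10.05 and 9.53 with DMSO. Every JQ1 array was above every DMSO array. The mean was 11.10 ± 0.15 with JQ1 and 9.85 ± 0.28 with DMSO (SD, n = 3 each), a difference of 1.26 (SE 0.19, limma adjusted p = 0.00134). Since the arrays read bulk RNA, more cells with the transcript and more transcript per cell cannot be told apart.

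The same SOX11 probe set in BE(2)-C cells read 4.55, 4.52 and 4.20 with JQ1, against 4.07, 4.31 and 4.49 with DMSO. The groups overlapped, and the difference was 0.13 (SE 0.19, adjusted p = 0.989). The effect in BE(2)-C minus that in Kelly was -1.12 (SE 0.26, unadjusted p = 0.000962), which did not pass over all genes (adjusted p = 0.0968). It did pass with the control signal as a covariate (-1.26, adjusted p = 0.000923). The average over both lines was 0.69 (SE 0.13, adjusted p = 0.00402).

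SOX11 had 4 probe sets, which target the same gene and are not independent of each other. In Kelly cells 3 of 4 passed over all probe sets, where 0.958% of all probe sets rose. In BE(2)-C cells 0 of 4 passed, with a lowest unadjusted p of 0.0618, where 1.25% of all probe sets rose. For the difference between lines 0 of 4 passed (lowest limma adjusted p = 0.127). A probe set of nearly the same brightness, 11724709_s_at, read 11.07, 11.0 and 10.80 in Kelly with JQ1, against 9.90, 10.06 and 9.39 in Kelly with DMSO (difference 1.17, adjusted p = 0.0059). Its BE(2)-C values were 4.15, 4.67 and 4.23 with JQ1, against 3.83, 3.88 and 4.10 with DMSO. These BE(2)-C groups did not overlap, but the difference of 0.41 did not pass (adjusted p = 0.451).

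The dimmer SOX11 probe sets varied more between Kelly replicates. Probe set 11724710_at read 9.37, 8.50 and 8.34 with JQ1, against 7.58, 8.44 and 7.19 with DMSO. The second DMSO array fell among the JQ1 arrays, and the difference of 1.00 did not pass (adjusted p = 0.117). Probe set 11724708_at read 8.44, 8.43 and 8.33 with JQ1, against 7.28, 7.91 and 6.56 with DMSO, with no overlap (difference 1.15, adjusted p = 0.0415). The names of the brighter pair end in _s_at, Affymetrix's mark for probes that match more than 1 transcript, although the annotation gives them SOX11 alone. With all _s_at and _x_at probe sets left out, SOX11 was read from 11724710_at, and its calls ended in Kelly (1.00, adjusted p = 0.105) and in the average (0.60, adjusted p = 0.148).

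SOX4, the SoxC gene with the widest expression, read 13.38, 13.09 and 13.34 in BE(2)-C cells with JQ1, against 13.00, 12.44 and 12.34 with DMSO. In Kelly cells it read 12.59, 12.54 and 12.67 with JQ1, against 11.81, 11.41 and 12.25 with DMSO. In each line every JQ1 array was above every DMSO array, and the third Kelly DMSO array came closest to the treated ones.

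The SOX4 difference was 0.68 in BE(2)-C (SE 0.22, adjusted p = 0.121) and 0.78 in Kelly (SE 0.22, adjusted p = 0.0594), and neither passed. SOX4 passed in Kelly with the replicate number as a block (0.78, adjusted p = 0.0401) and without Kelly DMSO replicate 3 (0.99, adjusted p = 0.0137), and in BE(2)-C without BE(2)-C DMSO replicate 1 (0.88, adjusted p = 0.0426). With the control covariate it passed in both lines, at 0.63 in BE(2)-C (adjusted p = 0.00521) and 0.56 in Kelly (adjusted p = 0.0189). Averaged over both lines, SOX4 rose by 0.73 (SE 0.16, adjusted p = 0.00955). The effect in BE(2)-C minus that in Kelly was -0.10 (SE 0.32, adjusted p = 0.907). Over the 7 SOX4 probe sets this difference ran from -0.32 to 0.81, and none passed (lowest limma adjusted p = 0.208 over all probe sets).

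SOX4 had 7 probe sets, and JQ1 arrays averaged higher than DMSO arrays for every one of them in both lines. The differences were 0.68 to 1.03 in BE(2)-C, where 2 passed, and 0.15 to 1.15 in Kelly, where 1 passed. Of all probe sets, 1.25% rose in BE(2)-C and 0.958% in Kelly. The JQ1 and DMSO arrays did not overlap for 6 of the 7 in BE(2)-C and for 3 of the 7 in Kelly, where 9.90% of all probe sets in BE(2)-C and 10.8% in Kelly had every JQ1 array above every DMSO array. The probe set with the lowest p in BE(2)-C, 11719559_at, read 10.53, 10.55 and 10.59 in BE(2)-C with JQ1, against 9.44, 9.74 and 9.63 with DMSO (0.96, adjusted p = 0.00573). In Kelly it read 9.0, 8.87 and 8.51 with JQ1, against 8.71, 8.63 and 8.60 with DMSO, with overlap (0.15, adjusted p = 0.593). In the average over lines 6 of 7 passed, at 0.55 to 0.99, where 2.47% of all probe sets rose.

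**Figure D2:**
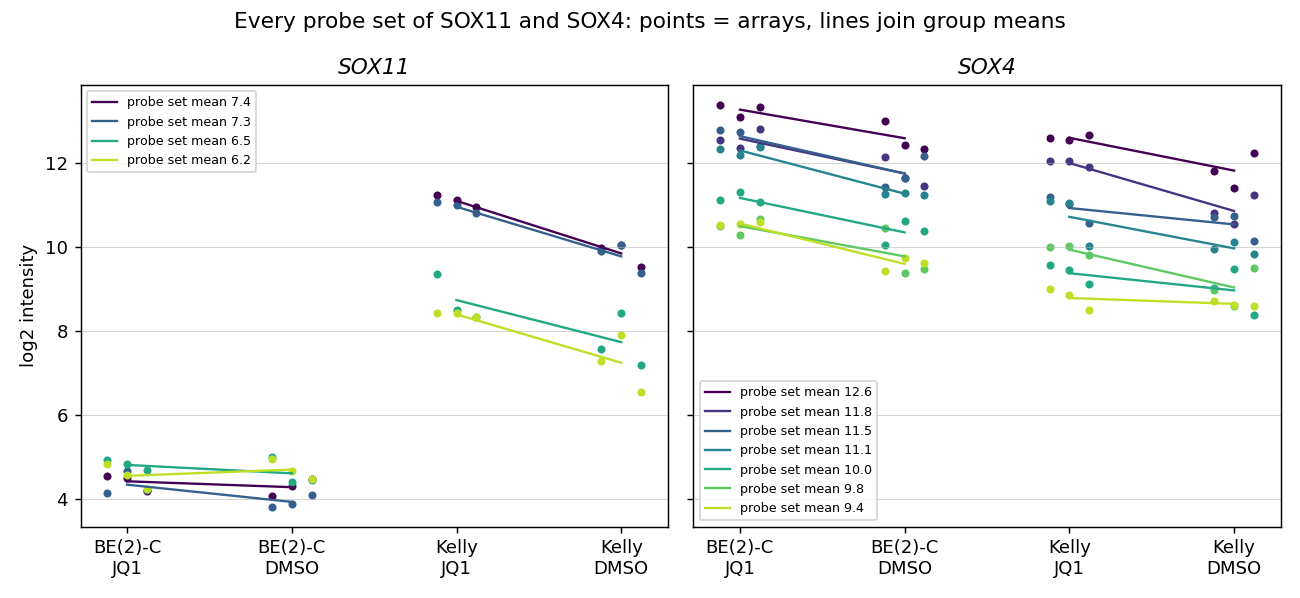
Log2 intensity of every probe set of SOX11 (left, 4 probe sets) and SOX4 (right, 7 probe sets) in BE(2)-C and Kelly cells with JQ1 or DMSO. Points are arrays, lines join the group means within a line, and the legend gives each probe set's mean over the 12 arrays. All 4 SOX11 probe sets lie near 4 to 5 in BE(2)-C and separate by brightness in Kelly, whereas the SOX4 lines keep a JQ1 mean above the DMSO mean in both cell lines.

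The sequences upstream of SOX4 and SOX12 are shown as those of the SoxC genes that had an entry; the difference between their JQ1 changes was not tested. They come from RefSeq on GRCh38.p14, where 5 of the 8 genes had an entry, and each gives the 250 bases before the annotated start on the plus strand, chr6:21593501-21593750 for SOX4 and chr20:325302-325551 for SOX12. Capitals mark matches to the motifs searched.
SOX4: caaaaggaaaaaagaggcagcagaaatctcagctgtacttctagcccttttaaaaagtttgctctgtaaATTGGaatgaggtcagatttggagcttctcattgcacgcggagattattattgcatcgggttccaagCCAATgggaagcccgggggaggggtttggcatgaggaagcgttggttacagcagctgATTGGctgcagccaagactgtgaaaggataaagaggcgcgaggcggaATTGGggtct
SOX12: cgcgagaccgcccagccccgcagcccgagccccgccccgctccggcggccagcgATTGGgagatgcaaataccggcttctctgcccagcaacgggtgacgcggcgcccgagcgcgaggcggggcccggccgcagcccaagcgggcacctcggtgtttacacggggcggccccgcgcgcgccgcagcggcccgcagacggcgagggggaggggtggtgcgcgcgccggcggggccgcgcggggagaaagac

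The motifs were searched on both strands in windows of 300 bases, from 250 before to 50 after each start. They were CACGTG, the E-box letters that MYC and MYCN proteins bind, TATAAA, the letters of the TATA box, and CCAAT, the letters that the trimeric factor NF-Y binds. The SOX-type letters ACAAAG were searched too, as were the related letters AACAAT. SOX4 held 4 matches to CCAAT, in 1 or the other orientation, and SOX12 held 1. Neither window held any of the other motifs. Of 35116 promoter windows of that length, 34.6% held CCAAT, 7.26% held CACGTG, 11.5% held TATAAA, 16.1% held ACAAAG and 10.1% held AACAAT. The G and C content was 49.3% in the SOX4 window and 80.3% in the SOX12 window. A match is a run of letters and not a measured binding site.

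SOX12, the weakest activator of the SoxC group in mouse assays, did not pass in either line. It read 9.05, 8.98 and 8.96 in BE(2)-C with JQ1, against 9.01, 9.17 and 8.99 with DMSO. In Kelly cells it read 9.60, 9.35 and 9.25 with JQ1, against 9.54, 9.55 and 9.67 with DMSO. The groups overlapped in both lines, with differences of -0.06 (SE 0.14, adjusted p = 1) in BE(2)-C and -0.18 (SE 0.14, adjusted p = 0.439) in Kelly. None of its 4 probe sets passed in either line.

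SOX2, the SoxB1 progenitor factor, did not pass either. Its brightest probe set read 6.11, 6.09 and 5.96 in BE(2)-C with JQ1, against 6.18, 6.60 and 6.85 with DMSO. Those groups did not overlap, with JQ1 lower, yet the difference of -0.49 did not pass (SE 0.24, adjusted p = 0.36), and the other SOX2 probe sets gave 0.03 and 0.04. In Kelly it read 6.27, 6.88 and 6.30 with JQ1, against 6.74, 6.73 and 6.08 with DMSO, with overlap (-0.03, adjusted p = 0.942).

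The SoxD genes SOX5 and SOX6, which lack a transactivation domain of their own, had no call for JQ1. SOX5 read 5.50, 5.06 and 5.42 in BE(2)-C with JQ1, against 5.85, 5.28 and 5.23 with DMSO. In Kelly SOX5 read 5.81, 5.86 and 6.28 with JQ1, against 5.70, 5.87 and 6.03 with DMSO. The SOX5 groups overlapped in both lines, with differences of -0.13 (adjusted p = 1) in BE(2)-C and 0.11 (adjusted p = 0.757) in Kelly.

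SOX6 read 4.95, 4.93 and 4.84 in BE(2)-C with JQ1, against 5.28, 5.13 and 5.02 with DMSO (-0.23, adjusted p = 0.686). In Kelly it read 5.02, 5.23 and 5.0 with JQ1, against 5.03, 4.74 and 5.29 with DMSO (0.06, adjusted p = 0.833). The BE(2)-C groups did not overlap and the Kelly groups did. Of 6 SOX6 probe sets, 3 had every BE(2)-C JQ1 array below every DMSO array, as had 9.29% of all probe sets. The one nearest the threshold, 11726178_a_at, read 4.73, 4.75 and 4.74 in BE(2)-C with JQ1, against 5.30, 5.26 and 5.35 with DMSO (-0.56, adjusted p = 0.086). None of the 6 passed in either line. Over the 12 arrays SOX6 averaged 5.04 and SOX5 5.66, where the haematopoietic marker CD3E averaged 5.19. It is thus not known whether SOX5 or SOX6 lies above background.

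SOX9, the SoxE factor of cartilage and neural crest, had differences of opposite sign in the lines. It read 6.76, 6.91 and 6.66 in BE(2)-C cells with JQ1, against 6.12, 6.54 and 6.62 with DMSO. In Kelly cells it read 6.93, 6.71 and 6.25 with JQ1, against 7.44, 7.71 and 7.27 with DMSO. Neither pair of groups overlapped: JQ1 arrays were above DMSO arrays in BE(2)-C and below them in Kelly. Of all genes, 11.5% were higher with no overlap in BE(2)-C and 11.6% lower in Kelly. The groups of the other SOX9 probe sets overlapped in both lines.

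In Kelly SOX9 fell by 0.84 on the log2 scale, or 1.80-fold (SE 0.21, adjusted p = 0.0275). In BE(2)-C the difference was 0.35 and did not pass (SE 0.21, adjusted p = 0.521). The effect in BE(2)-C minus that in Kelly was 1.20 (SE 0.29, unadjusted p = 0.00126), which did not pass over all genes (adjusted p = 0.117) but did with the control signal as a covariate (1.05, adjusted p = 0.00791).

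The fall of SOX9 in Kelly rested on 1 of its 3 probe sets. The others gave -0.21 (adjusted p = 0.569) and -0.17 (adjusted p = 0.6), and with the mean of all SOX9 probe sets the call ended (-0.41, adjusted p = 0.142), as it did without the _s_at and _x_at probe sets (-0.21, adjusted p = 0.561) and in a fit of the Kelly arrays alone (-0.84, adjusted p = 0.0995). The call also ended without Kelly DMSO replicate 1 (-0.86, adjusted p = 0.0903), Kelly DMSO replicate 2 (-0.73, adjusted p = 0.121), Kelly JQ1 replicate 2 (-0.89, adjusted p = 0.0659) or Kelly JQ1 replicate 3 (-0.65, adjusted p = 0.0875).

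SOX10, the neural crest and Schwann cell factor, did not pass. It read 6.52, 6.33 and 6.86 in BE(2)-C with JQ1, against 6.94, 6.43 and 6.17 with DMSO (0.06, adjusted p = 1). In Kelly it read 6.86, 6.88 and 7.46 with JQ1, against 6.47, 6.37 and 6.93 with DMSO (0.47, SE 0.25, adjusted p = 0.27). The groups overlapped in both lines, although the third Kelly arrays of both treatments were the highest of their groups. Its second probe set gave 0.15 in BE(2)-C and 0.48 in Kelly, and neither passed.

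Over the 8 genes, 1 rose and 1 fell in Kelly, where 1.76% of all genes rose and 4.73% fell. In BE(2)-C 0 of 8 passed with limma, with 1 of 8 under an unadjusted p of 0.05 (SOX4), as were 15.3% of all genes. There 4.69% of all genes passed in either direction, 2.18% higher and 2.51% lower. In the average of both lines 2 of 8 rose, SOX4 and SOX11, against 4.02% of all genes. For the difference between lines 0 of 8 passed with limma, with 2 of 8 under an unadjusted p of 0.05 (SOX11 and SOX9). Of all genes 0.557% passed there and 11.3% were under an unadjusted p of 0.05. The median change was 0.09 over the 8 genes and 0.08 over all genes in Kelly, and -0.00 over the 8 genes and -0.01 over all genes in BE(2)-C.

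Over the 32 probe sets, 2 rose and 0 fell in BE(2)-C, both of SOX4 (1.25% of all probe sets rose there and 1.56% fell), and 8 of 32 were under an unadjusted p of 0.05, as were 12.5% of all probe sets. There 8 of 32 were also higher with no overlap between groups and 4 were lower, where 9.90% of all probe sets were higher and 9.29% lower. Kelly had 4 that rose, 3 of SOX11 and 1 of SOX4, and 1 of SOX9 that fell, where 0.958% of all probe sets rose and 3.39% fell. It also had 7 that were higher with no overlap and 2 lower, where 10.8% of all probe sets were higher and 10.9% lower. Averaged over both lines, 8 of 32 rose, against 2.47% of all probe sets.

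**Figure D3:**
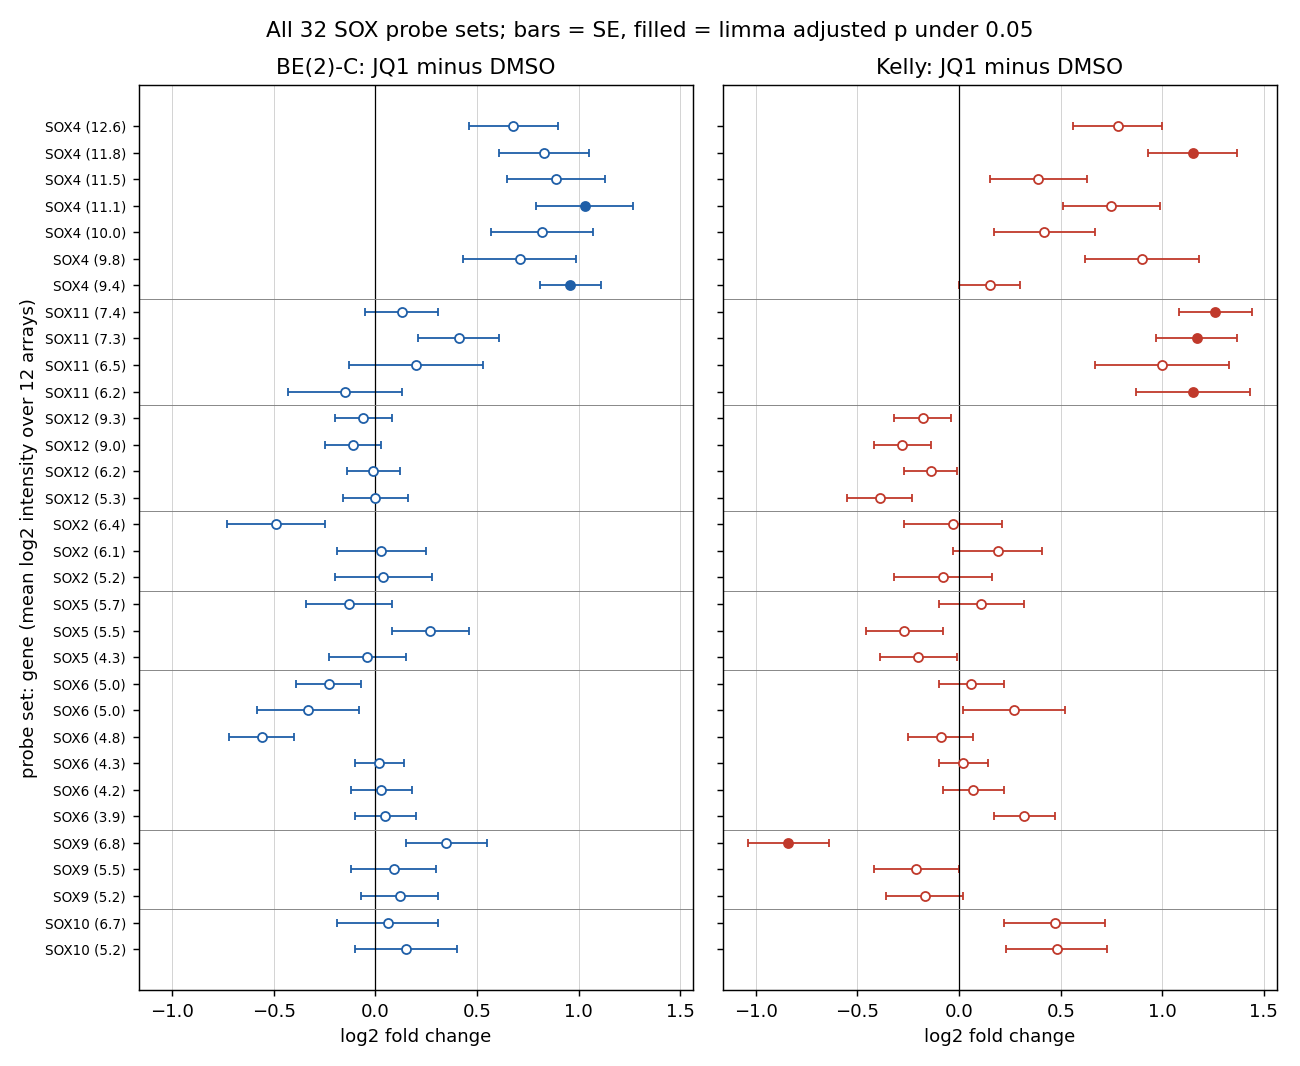
Difference in log2 intensity, JQ1 minus DMSO, for each of the 32 probe sets of the 8 SOX genes in BE(2)-C and Kelly cells, with error bars of 1 SE from limma and filled points for an adjusted p under 0.05 over all probe sets. The SOX4 points are all above 0 in both lines, and the SOX11 points are at 1.00 to 1.26 in Kelly and at -0.15 to 0.41 in BE(2)-C.

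The change of SOX11 was set against that of each relative on the same arrays, as the JQ1 minus DMSO difference of SOX11 less that of the other gene. This comparison was named with the rise of SOX11 already known, so the values are a description and carry no test. Averaged over both lines, SOX11 exceeded SOX12 by 0.82, SOX2 by 0.96 and SOX6 by 0.78. It exceeded SOX5 by 0.70, SOX9 by 0.94 and SOX10 by 0.43. SOX11 and SOX4 had average changes within 0.03 of each other (-0.03).

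By line, the excess of SOX11 was larger in Kelly for each of the 7 relatives. The 7 values of a line share the same SOX11 change, 0.13 in BE(2)-C and 1.26 in Kelly, and are not independent of each other. Over SOX4 the excess was -0.54 in BE(2)-C and 0.48 in Kelly. Over SOX12 it was 0.19 in BE(2)-C and 1.44 in Kelly, and over SOX2 0.62 in BE(2)-C and 1.29 in Kelly. For the SoxD genes it was 0.26 in BE(2)-C and 1.14 in Kelly over SOX5, and 0.37 in BE(2)-C and 1.19 in Kelly over SOX6. For the glial genes it was -0.22 in BE(2)-C and 2.10 in Kelly over SOX9, and 0.08 in BE(2)-C and 0.78 in Kelly over SOX10. The BE(2)-C values rest on SOX11 levels near 4 to 5. Those over SOX5 and SOX6 rest in both lines on low levels of these genes too.

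**Figure D4:**
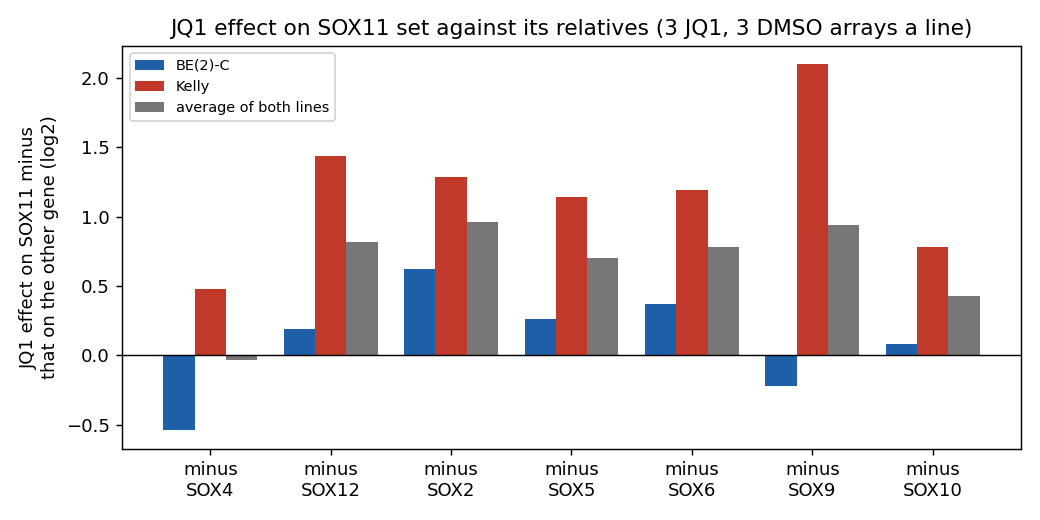
JQ1 minus DMSO change of SOX11 less that of each of the 7 other SOX genes, in log2 units, for BE(2)-C, Kelly and the average of both lines. The Kelly values run between 0.48 and 2.10, the BE(2)-C values between -0.54 and 0.62, and SOX4 is the relative whose average lies at -0.03.

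The lines differed in SOX levels in either treatment. Under DMSO, 1 of the 8 genes was higher in BE(2)-C than in Kelly and 3 were lower, where 7.20% of all genes were higher and 7.89% lower. Under JQ1, 1 was higher and 2 were lower, where 12.9% of all genes were higher and 10.4% lower. Those comparisons share no arrays.

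SOX11 averaged 4.29 ± 0.21 in BE(2)-C and 9.85 ± 0.28 in Kelly with DMSO (SD, n = 3 each; -5.56, SE 0.19, adjusted p = 1.24e-09). With JQ1 it averaged 4.43 ± 0.19 in BE(2)-C and 11.10 ± 0.15 in Kelly (-6.68, SE 0.19, adjusted p = 3.04e-10). Both Kelly groups were thus above both BE(2)-C groups, and the BE(2)-C groups, whose arrays overlapped, are not ordered. The size of these line differences depends on where background lies in BE(2)-C. All 4 SOX11 probe sets were lower in BE(2)-C, by differences of -5.85 to -2.54 with DMSO and -6.68 to -3.84 with JQ1. SOX4 ran the other way. It averaged 12.59 ± 0.35 in BE(2)-C and 11.82 ± 0.42 in Kelly with DMSO (0.77, adjusted p = 0.0339), and 13.27 ± 0.15 in BE(2)-C and 12.60 ± 0.07 in Kelly with JQ1 (0.67, adjusted p = 0.0459). All 7 of its probe sets averaged higher in BE(2)-C in both treatments, and 6 passed with DMSO and 4 with JQ1. Of all probe sets, 6.26% passed as higher with DMSO and 12.6% with JQ1.

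SOX12 averaged 9.06 ± 0.10 in BE(2)-C and 9.59 ± 0.07 in Kelly with DMSO (-0.53, adjusted p = 0.0223). All 4 SOX12 probe sets passed with DMSO as lower in BE(2)-C, where 12.3% of all probe sets passed in either direction. These 4 target the same gene and are not independent of each other. With JQ1 the SOX12 difference of -0.40 did not pass (adjusted p = 0.0563). SOX9 averaged 6.43 ± 0.27 in BE(2)-C and 7.47 ± 0.22 in Kelly with DMSO (-1.05, adjusted p = 0.00328), and 6.78 ± 0.13 in BE(2)-C and 6.63 ± 0.35 in Kelly with JQ1 (0.15, adjusted p = 0.593).

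SOX5 passed with JQ1, at 5.33 ± 0.24 in BE(2)-C and 5.98 ± 0.26 in Kelly (-0.66, adjusted p = 0.0385). With DMSO its brightest probe set did not pass (-0.41, adjusted p = 0.264), while its other probe sets did, at -1.09 and -0.99 (adjusted p = 0.00194 and 0.00416). SOX2, SOX6 and SOX10 did not pass between lines in either treatment as genes, although SOX6 probe set 11726178_a_at was higher in BE(2)-C with DMSO (0.70, adjusted p = 0.0101). The line calls of SOX4, SOX12 and SOX5 each ended without any of several single arrays. SOX4 with DMSO ended at an adjusted p of 0.0967 without Kelly DMSO replicate 1, 0.135 without Kelly DMSO replicate 2, 0.111 without BE(2)-C DMSO replicate 1 and 0.0608 without BE(2)-C DMSO replicate 2. SOX12 with DMSO ended at 0.0627 and 0.0584 without Kelly DMSO replicate 1 or 3, and at 0.053 and 0.0824 without BE(2)-C DMSO replicate 1 or 3. With JQ1, SOX4 ended without any single JQ1 array of either line (adjusted p of 0.0739 to 0.14), and SOX5 ended without any BE(2)-C JQ1 array or Kelly JQ1 replicate 2 or 3 (adjusted p of 0.0594 to 0.169). Quantile normalization ended the SOX4 calls with DMSO (adjusted p = 0.0782) and JQ1 (0.138), a fit of the DMSO arrays alone ended those of SOX4 (0.141) and SOX12 (0.0711), and the control covariate ended that of SOX5 with JQ1 (-0.40, adjusted p = 0.0935).

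Over the 32 probe sets, 7 were higher in BE(2)-C and 12 lower with DMSO, where 12.3% of all probe sets passed in either direction. With JQ1, 4 were higher and 6 lower, where 20.2% passed in either direction.

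The other 11 SOX genes on the array, SOX1, SOX3, SOX7, SOX8, SOX13, SOX14, SOX15, SOX17, SOX18, SOX21 and SOX30, all missed the threshold for JQ1 in both lines with limma. Under an unadjusted p of 0.05 there were 0 of 11 in BE(2)-C and 3 of 11 in Kelly, and over all genes 15.3% in BE(2)-C and 22.5% in Kelly were. The median change of the 11 was -0.02 in BE(2)-C and 0.41 in Kelly, where the median over all genes was 0.08. Most lists described below also had Kelly medians above 0.08. These were cartilage targets of SOX9 (0.47), POU and PAX partners (0.35), haematopoietic markers (0.32) and neural crest and glial genes (0.29). Epithelial (0.23), progenitor (0.17) and mesenchymal (0.13) genes did so too. Neuronal genes tied to SoxC factors (0.04), sympathetic neuroblast markers (-0.01) and adrenergic transcription factors (-0.50) did not. The 3' minus 5' log2 signal of the GAPDH control, a measure of RNA quality, moved with treatment in Kelly. It was 0.25, 0.34 and 0.56 in Kelly with JQ1, against 0.19, 0.16 and 0.45 with DMSO, higher with JQ1 for each replicate number although the groups overlapped. In BE(2)-C it was 0.16, 0.17 and 0.20 with JQ1, against 0.40, 0.27 and 0.15 with DMSO. Its part in the Kelly values was not tested. Between lines, 2 of 11 passed with DMSO, where 15.1% of all genes passed in either direction. Both are SoxF genes, which are known from blood and lymph vessel endothelium. SOX18 averaged 8.88 in BE(2)-C and 5.05 in Kelly with DMSO (3.84, adjusted p = 1.14e-07), and SOX7 averaged 7.93 in BE(2)-C and 5.34 in Kelly (2.59, adjusted p = 4.25e-05). With JQ1, 3 of 11 passed, 2 higher in BE(2)-C and 1 lower, where 23.3% of all genes passed in either direction. SOX18 was again higher (3.47, adjusted p = 3.18e-07), as was SOX7 (2.81, adjusted p = 2.15e-05). SOX17, another SoxF gene, was lower, at 5.07 in BE(2)-C and 5.96 in Kelly (-0.89, adjusted p = 0.0187).

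The counts of the gene lists that follow stand beside those of all genes, with 2.18% higher and 2.51% lower under JQ1 in BE(2)-C, and 1.76% higher and 4.73% lower in Kelly. Unadjusted p-values were under 0.05 for 15.3% of all genes in BE(2)-C and 22.5% in Kelly.

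POU and PAX factors are the partners with which SOX proteins often bind DNA. None of the 6 measured passed for JQ1 in either line with limma, with 0 of 6 under an unadjusted p of 0.05 in BE(2)-C and 2 of 6 in Kelly. The largest average changes were 0.38 for POU3F1 and 0.26 for POU3F3.

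Of 15 neuronal genes tied to SoxC factors, 2 rose and 4 fell in Kelly, while BE(2)-C had 1 that rose and 2 that fell. NEFM, a neurofilament subunit, rose in Kelly (1.01, adjusted p = 0.000992) and was at 0.16 in BE(2)-C (adjusted p = 0.855). DCX, a microtubule-binding protein of migrating neurons, fell in Kelly (-1.53, adjusted p = 0.00388) and was at -0.32 in BE(2)-C (adjusted p = 0.797). TEAD2, a reported SoxC target in mouse, fell in Kelly (-1.15, adjusted p = 0.00952) and was at -0.48 in BE(2)-C (adjusted p = 0.36). MAP2, a dendritic microtubule protein, fell in BE(2)-C (-0.93, adjusted p = 0.00696) and was at -0.50 in Kelly (adjusted p = 0.0967). The other passing genes of this list were TUBB3, the neuronal tubulin, GAP43, a growth cone protein, and ELAVL4, a neuronal RNA-binding protein. TUBB3 rose by 0.83 in BE(2)-C (adjusted p = 0.022) and by 0.85 in Kelly (adjusted p = 0.0152). GAP43 fell in both, at -0.92 in BE(2)-C (adjusted p = 0.0425) and -0.98 in Kelly (adjusted p = 0.0247), and ELAVL4 fell in Kelly (-0.64, adjusted p = 0.0335). The list's median change was 0.16 in BE(2)-C and 0.04 in Kelly.

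Of 16 measured adrenergic transcription factors, BE(2)-C had 2 that rose and 1 that fell, and Kelly had 6 that fell and 0 that rose, with list medians of -0.14 in BE(2)-C and -0.50 in Kelly. TFAP2B, a sympathetic AP-2 factor, fell in both (-1.08, adjusted p = 0.00134 in BE(2)-C, and -1.12, adjusted p = 0.000696 in Kelly). LMO1, a LIM-only cofactor and neuroblastoma susceptibility gene, was at -0.29 in BE(2)-C (adjusted p = 0.635) and fell in Kelly (-1.55, adjusted p = 0.000396). KLF7, a Krüppel-like factor of neurons, was at 0.37 in BE(2)-C (adjusted p = 0.629) and fell in Kelly (-1.65, adjusted p = 0.00128). The genes that rose in BE(2)-C were PHOX2A, a sympathetic homeobox factor (0.83, adjusted p = 0.00903), and GATA3, a zinc-finger factor of sympathetic neurons (0.58, adjusted p = 0.0425). LMO3 was at -0.57 in BE(2)-C (adjusted p = 0.571) and fell in Kelly (-1.91, adjusted p = 0.00542).

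Of 8 measured sympathetic neuroblast markers, BE(2)-C had 4 that rose and 3 that fell, and Kelly had 3 that fell and 0 that rose. Those that fell in both lines were the catecholamine enzymes. TH was at -1.48 in BE(2)-C (adjusted p = 0.00147) and -1.90 in Kelly (adjusted p = 0.000167), DBH at -1.60 in BE(2)-C (adjusted p = 0.00289) and -0.98 in Kelly (adjusted p = 0.0345), and DDC at -0.78 in BE(2)-C (adjusted p = 0.0197) and -1.68 in Kelly (adjusted p = 9.47e-05). PHOX2A, which is also on the adrenergic list, was at 0.51 in Kelly (adjusted p = 0.077). GATA3 is on both lists too, and the others that rose in BE(2)-C were the granins CHGA (0.63, adjusted p = 0.0235) and CHGB (0.79, adjusted p = 0.0266).

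Markers of glia, cartilage and progenitors bear on where SOX9, SOX10 and SOX2 are usually found. Of 13 measured neural crest and glial genes, 0 passed in BE(2)-C with limma (2 of 13 under an unadjusted p of 0.05), and 1 rose and 1 fell in Kelly. In Kelly EDNRB, an endothelin receptor of neural crest cells, fell (-1.08, adjusted p = 0.00466), and L1CAM, an adhesion molecule of neurons and Schwann cells, rose (0.89, adjusted p = 0.0235). Over the 12 arrays 7 of the 13 averaged under 6. The summed level of the list, as log2, was 12.78 to 12.85 in BE(2)-C with JQ1 and 12.12 to 12.76 with DMSO, and 11.57 to 11.94 in Kelly with JQ1 and 10.89 to 11.33 with DMSO. The sum was taken on the linear scale, and most of it was L1CAM. That gene averaged 12.67 in BE(2)-C with JQ1, 12.15 in BE(2)-C with DMSO, 11.27 in Kelly with JQ1 and 10.38 in Kelly with DMSO. The sum is thus no measure of glial genes as a whole. The part of these levels in the SOX9 and SOX10 values was not tested.

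Of 6 cartilage targets of SOX9, 0 passed in either line with limma, with 0 of 6 under an unadjusted p of 0.05 in BE(2)-C and 3 of 6 in Kelly. The largest average changes were -0.42 for COL9A1, a cartilage collagen, and 0.39 for MATN1, a cartilage matrix protein. Of 8 progenitor genes, NES, the intermediate filament of neural stem cells, fell in BE(2)-C (-0.92, adjusted p = 0.00291). In Kelly SALL4, a stem cell zinc-finger factor, fell (-1.47, adjusted p = 0.000744), as did MSI1, an RNA-binding protein of neural progenitors (-1.68, adjusted p = 0.00146).

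Of 11 mesenchymal genes, 0 passed in BE(2)-C with limma (0 of 11 under an unadjusted p of 0.05). In Kelly FN1, the matrix protein fibronectin, rose (0.82, adjusted p = 0.038), and VIM, the filament vimentin, fell (-1.36, adjusted p = 0.0239). The 4 haematopoietic and 4 epithelial markers had no call for JQ1 in either line with limma, with 0 of 4 haematopoietic and 1 of 4 epithelial genes under an unadjusted p of 0.05 in BE(2)-C and 0 of 4 of each in Kelly. The largest average changes there were 0.33 for EPCAM, 0.32 for KRT8, 0.16 for CD3E and 0.11 for LYZ.

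The genes whose levels were most like those of SOX11 over the 12 arrays were FAT1 (Pearson r = 0.998), PTPRM (0.994), MYO6 (0.992), TSPAN12 (0.991) and KITLG (0.991). These points fall into 1 cluster for each line, so the value mostly describes genes that were low in BE(2)-C and high in Kelly, with DMSO differences of -3.47 for FAT1 and -4.36 for PTPRM. With each line's mean taken out, the most alike were ACSL1 (0.974), IRS2 (0.973), PCDH9 (0.941), SAYSD1 (0.936) and CRTAC1 (0.933). PCDH9, a protocadherin, was at -0.12 in BE(2)-C (adjusted p = 0.944) and rose in Kelly (1.65, adjusted p = 2.4e-05). IRS2, an insulin receptor substrate, was at 0.19 in BE(2)-C (adjusted p = 0.89) and rose in Kelly (0.90, adjusted p = 0.01). These correlations are descriptions of genes picked as the highest of 18132, and the arrays share their groups.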

How the data were processed

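RNA of 12 samples in 4 groups was measured on 12 PrimeView arrays. The deposited intensity values were made by the authors with RMA, per the submitters' processing notes, and lie on a linear scale; RMA subtracts background, puts all arrays on 1 distribution and sums up the probes of a probe set, and no version of it is stated. The design had foreseen log2 values, so log2 was taken here, with no offset. Of 49395 probe sets, 44988 named exactly 1 gene in the platform annotation, of which 99.9% matched the GRCh38.p14 gene table by gene ID. The 18132 genes were each read from their brightest probe set (by the mean of all 12 arrays).

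All 12 arrays entered 1 model of group means in limma 3.58.1 (R 4.3.3; lmFit and eBayes), and p-values were adjusted by Benjamini-Hochberg over all genes, or all 1-gene probe sets, of each contrast, at 0.05. The script was tested on simulated data. Differences between genes are given with no test. The number of arrays limits the precision. Same-numbered JQ1 and DMSO arrays had deviations with a positive r for each replicate number in Kelly (r = 0.434, 0.228 and 0.515). In BE(2)-C the signs were mixed (r = -0.071, 0.527 and -0.744). Labels do not say whether a replicate number marks a shared culture or day, so it is not known whether arrays are paired. Main tests treated them as unpaired, and the replicate block was run as an alternative. The genes named were all probe sets of the 8 SOX genes, all other SOX genes, up to 4 passing genes of each other list (the 2 of largest average change where none passed) and the 5 genes most like SOX11 by each measure. Beyond this rule TUBB3, GAP43, ELAVL4, GATA3, CHGA and CHGB were named after their values were seen, to complete small counts. The 8 genes and the lists were chosen with earlier results of these data known. RNAs named for SOX loci and genes with no 1-gene probe set were not analysed here. Alternatives covered the probe set, its suffix, normalization, offset, dim genes, variance prior, array weights, replicate block, control signal, arrays in the fit and each array left out.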

Additional observations from a re-analysis of the deposited data

Results flagged for a closer look

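SOX9 is listed because its JQ1 difference had opposite signs in the lines, with every JQ1 array above every DMSO array in BE(2)-C and below every DMSO array in Kelly. These readings are of its brightest probe set. The other SOX9 probe sets overlapped in both lines. Their effects in BE(2)-C minus those in Kelly were 0.30 each (limma adjusted p = 0.688 and 0.659 over all probe sets). Of all genes, 11.5% were higher with no overlap in BE(2)-C and 11.6% lower in Kelly. For the brightest probe set, the effect in BE(2)-C minus that in Kelly was 1.20 on the log2 scale (SE 0.29). Its test over all genes did not pass (limma adjusted p = 0.117). Over 22 alternatives this difference stayed above 0, between 0.30 and 1.35, and passed in 2 of them, with array weights (0.95, adjusted p = 0.000934) and with the control signal as a covariate (1.05, adjusted p = 0.00791).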

How the results depend on the processing

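No tested result changed sign and passed. The difference of SOX4, averaged over both lines, passed in 22 of 22 alternatives (adjusted p of 2.61e-06 to 0.0359), and that of SOX11 in Kelly in 16 of 17, with the exception of the setting without _s_at and _x_at probe sets. That setting left SOX11 at 1.00 in Kelly (adjusted p = 0.105) and 0.60 in the average (adjusted p = 0.148), with 0 SOX genes passing in Kelly, against 2, and 1 in the average, against 2. For the difference between lines, SOX11 passed with quantile normalization (-1.25, adjusted p = 0.0463), an offset of 16 (-1.17, adjusted p = 0.0304), array weights (-1.01, adjusted p = 0.000423) and the control covariate (-1.26, adjusted p = 0.000923), which gave 1, 1, 2 and 2 SOX genes, against 0. Array weights gave 2 SOX genes in BE(2)-C, against 0, 4 in Kelly, 5 in the average and 6 between lines under JQ1, against 3. Averaging each gene's probe sets gave 1 in BE(2)-C, as did the control covariate. With only the arrays compared, 1 SOX gene passed in Kelly and 2 between lines under DMSO, against 4. Without 1 array the counts were 0 to 1 in BE(2)-C, 1 to 3 in Kelly, 2 to 2 in the average, 0 to 0 for the difference, 2 to 3 between lines under DMSO and 1 to 2 under JQ1. The causes were not tested, beyond the fewer arrays or genes of a setting.

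With the replicate block, SOX11 was at 0.13 in BE(2)-C (adjusted p = 0.947) and 1.26 in Kelly (adjusted p = 0.00404), 0.69 in the average (adjusted p = 0.00875) and -1.12 for the difference (adjusted p = 0.121). Beyond SOX4 in Kelly, the block changed no other call of the 8 genes. The arrays give no measure of background in the values used, so levels near 4 to 5 limit what can be read for SOX11 in BE(2)-C. The same limit holds in both lines for SOX6 and SOX5, which averaged 5.04 and 5.66 over the 12 arrays. Whether SOX2, SOX10 and SOX9 lie above background is not known either. They averaged 6.40, 6.69 and 6.83, where the brightest epithelial marker, KRT8, averaged 6.96 and 3 of the 4 epithelial markers averaged under 6.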
